A study of Mus musculus with 6 samples.

Results

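The 10 genes described here are genes of GDNF signalling and of the stem-cell end of the spermatogonial lineage, measured in whole mouse testes: Gdnf, Gfra1, Ret, Etv5, Bcl6b, Lhx1, Id4, Eomes, Nanos2 and Pax7. They were taken by symbol from a count table of 22274 genes, and all 10 had a row and passed the filter on low counts. The table holds messenger RNA counts from 6 libraries of testes labelled day 9, without saying from which event days were counted. In 3 libraries from conditional Dcaf2 knockout (cKO) mice, floxed Dcaf2 had been crossed with Stra8-Cre, a Cre recombinase driven by the promoter of Stra8, a gene switched on in spermatogonia. The other 3 are labelled control, and the labels give neither the alleles of the controls nor whether the numbered libraries come from separate animals. The p-values therefore cover only the spread between these libraries, which may be technical. DCAF2 is a substrate receptor of the CRL4 ubiquitin ligase, and the study asked whether it is needed for spermatogenesis.

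Glial cell line-derived neurotrophic factor (GDNF) is secreted by somatic cells of the testis, mainly Sertoli and peritubular myoid cells. It binds the co-receptor GFRA1 and the receptor tyrosine kinase RET on undifferentiated spermatogonia, and the signal passes through kinases such as SRC, AKT and ERK to transcription factors such as ETV5, BCL6B and LHX1, which maintain spermatogonial stem cells. ID4, EOMES, NANOS2 and PAX7 mark subsets of the same stem-cell compartment, which gives rise to progenitors expressing Neurog3 and Sox3 and then to differentiating spermatogonia expressing Kit.

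Totals ran from 15407007 to 18372964 counts per library. All 15 genes of a pan-germ-cell list were lower in the knockouts, with a median log2 fold change of -1.41, while 7 of 15 Sertoli cell markers were higher, with a median of 0.41. Of all genes tested for a difference, 13.9% were lower and 11.1% higher. Leaving out control library 1, 2 or 3 gave 13, 5 or 2 higher Sertoli markers. Leaving out knockout library 1, 2 or 3 gave 0, 0 or 4, and the medians of the 6 runs were 0.32 to 0.47. In the same order, 2392, 1998, 677, 476, 452 and 673 of all tested genes were higher, against 1599 with all libraries. None of the markers of germ, Sertoli, myoid, endothelial, Leydig or macrophage cells was at 0 in any library. In bulk testes, fewer cells of a type and less RNA per cell cannot be told apart. The targeted gene, listed as Dtl, was at 42.6, 50.3 and 77.4 CPM (counts scaled to library size) in control testes against 41.7, 43.8 and 51.5 CPM in knockout testes, overlapping groups (edgeR adjusted p = 0.281), and a count over the whole gene also takes in transcripts without the deleted part.

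Against the whole transcriptome, 3 of the 10 genes rose in the knockouts and 0 fell. Gdnf, the ligand, and the GDNF-responsive transcription factor genes Etv5 and Lhx1 passed the threshold. The other 7 genes, among them both receptor genes, did not pass. The number that rose was 1 without control library 3 or knockout library 1 or 3, 0 without knockout library 2, and 1 with scaling by the Sertoli or endothelial markers. Of all 14424 tested genes, 11.1% were higher and 13.9% lower by the same rule, an adjusted p under 0.05 in edgeR's quasi-likelihood test with TMM scaling, which sets each library to the bulk of its genes. With 1 of the libraries named above left out, 452 to 677 of all tested genes were higher, against 1599 in the main fit. With scaling by the Sertoli or endothelial markers, 36 and 154 were. The median log2 fold change of the 10 genes was 0.26, against 0.03 for all tested genes. At an unadjusted p under 0.05, the number that fell was also 0, and DESeq2 and limma-voom likewise called 0 lower.

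Gdnf gave 41.7, 36.2 and 26.7 CPM in control testes (libraries 1, 2 and 3, in this order throughout) against 49.8, 53.5 and 62.0 CPM in knockout testes. Every knockout library stood above every control, and the knockout with the lowest value was 1.20-fold above the highest control. The means were 34.9 ± 7.59 and 55.1 ± 6.23 CPM (SD, n = 3 each), so that the log2 fold change was 0.66 (SE 0.16, edgeR adjusted p = 0.0186). Without control library 3, which had the lowest level, the change was 0.50 (edgeR adjusted p = 0.0519), and without knockout library 2 or 3 the adjusted p was 0.0619 and 0.0772.

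Some markers of the cells that make GDNF were higher as well. The summed level of 15 Sertoli cell markers was 5841 to 8212 CPM in the controls and 7940 to 9108 CPM in the knockouts. Sox9, the Sertoli cell fate gene, rose by 0.44 (edgeR adjusted p = 0.028), a change that no longer passed when control library 3 or any 1 knockout library was left out. Scaled to the Sertoli cell markers, Gdnf was at 0.31 (edgeR adjusted p = 0.202), with all genes at a median of -0.35. The ratio of Gdnf counts to Sox9 counts was 0.213 ± 0.0275 in controls and 0.249 ± 0.0339 in knockouts (n = 3 each), with overlapping groups (exact permutation test, two-sided p = 0.2, 0.2 after adjustment over 3 ratios). Of 8 markers of peritubular myoid cells, the other source of GDNF, 1 rose, against 11.1% of all tested genes, and the list median was 0.04. The gene that rose was Smtn, by 0.39 (edgeR adjusted p = 0.0121, lost without control library 3 or knockout library 1 or 2). Acta2 and Myh11, smooth muscle actin and myosin genes of myoid cells, were at -0.15 and 0.34 (edgeR adjusted p = 0.278 and 0.133).

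Gfra1, whose product binds GDNF at the cell surface, gave 25.7, 25.3 and 32.6 CPM in control testes against 39.3, 32.1 and 30.8 CPM in knockout testes. Control library 3 lay above knockout libraries 2 and 3, so the groups overlapped. The log2 fold change was 0.29, with a 95% interval of -0.03 to 0.61 (edgeR adjusted p = 0.156). Ret, the kinase subunit, gave 46.9, 52.2 and 62.4 CPM in control testes against 52.0, 45.5 and 47.4 CPM in knockout testes. These groups also overlapped, with a log2 fold change of -0.15 and a 95% interval of -0.43 to 0.12 (edgeR adjusted p = 0.374).

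The ratio of the receptor pair was also taken within each library. Gfra1 had 0.550, 0.484 and 0.523 counts per count of Ret in control testes against 0.756, 0.705 and 0.650 in the knockouts. All 3 knockout ratios were above all 3 control ratios, and this ratio does not depend on library scaling. The means were 0.519 ± 0.0330 and 0.704 ± 0.0532 (n = 3 each, exact permutation test, two-sided p = 0.1, the smallest that 3 against 3 libraries allow, and 0.15 after adjustment over 3 ratios).

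Etv5 encodes an ETS transcription factor that spermatogonia and Sertoli cells both express. It gave 46.7, 53.0 and 52.2 CPM in control testes against 63.1, 60.9 and 67.0 CPM in knockout testes, with no overlap. The log2 fold change of 0.33 (SE 0.0937) was small and passed narrowly (edgeR adjusted p = 0.0321). It no longer passed when control library 3 or any 1 knockout library was left out (adjusted p = 0.0784 to 0.115) and with total-count scaling (0.065). Scaled to the Sertoli cell markers, the sign turned, to -0.06 (edgeR adjusted p = 0.838), with all genes at a median of -0.35.

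Lhx1 encodes a LIM-homeodomain factor and showed the widest difference of the 10. It had 93, 46 and 70 counts in control testes against 130, 142 and 112 in knockout testes, or 4.91, 2.56 and 4.21 against 8.45, 8.34 and 7.44 CPM. The lowest knockout library stood 1.52-fold above the highest control. The log2 fold change was 1.05 (SE 0.241, 2.07-fold, edgeR adjusted p = 0.0149). It stayed at 1.02 and 1.03 without knockout library 1 or 2, with adjusted p-values of 0.0625 and 0.0627. Lhx1 also passed with scaling by the Sertoli markers (0.69, edgeR adjusted p = 0.0469) and by 10 endothelial markers (0.83, adjusted p = 0.0161).

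Bcl6b, a transcriptional repressor gene that endothelial cells also express, gave 17.7, 18.1 and 20.98 CPM in control testes against 20.3, 18.8 and 23.2 CPM in knockout testes. The groups overlapped, and the log2 fold change of 0.13 had a 95% interval of -0.16 to 0.42 (edgeR adjusted p = 0.479). Of the 10 endothelial markers, 4 rose and 6 did not pass, with a median of 0.21. Among all tested genes 11.1% were higher, with a median of 0.03. Pecam1 and Kdr were among those that rose, by 0.48 and 0.63 (edgeR adjusted p = 0.0135 and 0.0208). Without knockout library 1 or 2, 0 of the 10 endothelial markers rose, and 476 and 452 of all tested genes were higher. Scaled to these markers Bcl6b was at -0.11 (edgeR adjusted p = 0.619), with all genes at a median of -0.22.

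**Figure D1:**
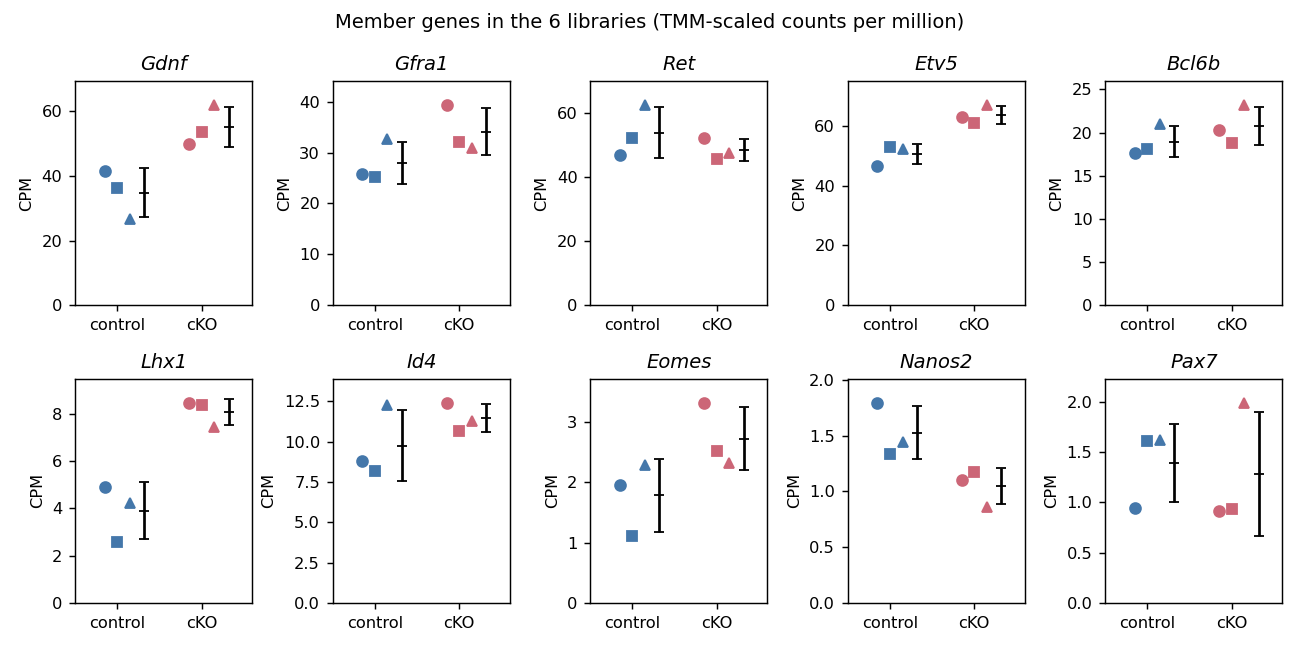
TMM-scaled CPM of each of the 10 genes, with 1 point per library (circle, square and triangle for library numbers 1, 2 and 3) and the mean ± SD beside each group of 3. Control and knockout points do not overlap for Gdnf, Etv5, Lhx1, Eomes and Nanos2, and Nanos2 is the gene of these whose knockouts lie below the controls. Among all tested genes, 44.6% showed no overlap.

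The 4 markers of stem-cell subsets did not pass the threshold in either direction, and 3 of them rested on few counts. Id4, which encodes an inhibitor of basic helix-loop-helix factors, gave 8.81, 8.20 and 12.3 CPM in control testes against 12.4, 10.7 and 11.3 CPM in knockout testes. Control library 3 stood among the knockouts, and the log2 fold change was 0.23 (95% interval -0.17 to 0.64, edgeR adjusted p = 0.367). Eomes, a T-box factor gene of a rare stem-cell subset, had 37, 20 and 38 counts in control testes against 51, 43 and 35 in knockout testes. In CPM the groups were just apart, with 2.28 in the highest control and 2.33 in the lowest knockout, and the log2 fold change of 0.61 had a 95% interval of -0.10 to 1.32 (edgeR adjusted p = 0.182).

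Nanos2 encodes an RNA-binding protein that represses differentiation in stem cells. It had 34, 24 and 24 counts in control testes against 17, 20 and 13 in knockout testes, or 1.79, 1.34 and 1.44 against 1.11, 1.17 and 0.864 CPM. Each knockout was below each control, but the log2 fold change of -0.54 (95% interval -1.20 to 0.13) did not pass (edgeR adjusted p = 0.207). Pax7, a paired-box gene of a rare subset, had 18, 29 and 27 counts in control testes against 14, 16 and 30 in knockout testes. Knockout library 3 had the highest count and the other 2 the lowest, so the log2 fold change of -0.13 had a 95% interval of -1.03 to 0.77 (edgeR adjusted p = 0.838). In all, the CPM groups did not overlap for 5 of the 10 genes, against 44.6% of all tested genes.

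The sequences before the annotated starts of the 3 genes that rose are shown because their transcripts rose together. RefSeq's table for GRCm38.p6 held promoters for 8 of the 10 genes, matched by symbol, and not for Ret and Bcl6b. The build behind the counts is not given in the sources used here. Shown are the 250 bases before the first listed start of each gene, 5′ to 3′ on the gene's strand. Capitals mark CCAAT (the CCAAT box) and TGACG (the half-site of the cAMP response element), in either orientation, so ATTGG and CGTCA count too.
Gdnf, chr15:7809798-7810047, plus strand: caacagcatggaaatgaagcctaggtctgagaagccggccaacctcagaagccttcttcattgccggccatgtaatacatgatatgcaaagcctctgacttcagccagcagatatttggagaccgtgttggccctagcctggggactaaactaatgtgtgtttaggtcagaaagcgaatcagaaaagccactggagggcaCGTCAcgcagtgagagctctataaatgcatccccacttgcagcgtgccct
Etv5, chr16:22439571-22439820, minus strand: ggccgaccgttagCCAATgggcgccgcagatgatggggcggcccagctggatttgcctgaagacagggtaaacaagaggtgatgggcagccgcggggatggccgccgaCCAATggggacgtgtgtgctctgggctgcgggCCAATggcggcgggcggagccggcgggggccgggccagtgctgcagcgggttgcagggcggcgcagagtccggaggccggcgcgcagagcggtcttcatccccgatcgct
Lhx1, chr11:84525535-84525784, minus strand: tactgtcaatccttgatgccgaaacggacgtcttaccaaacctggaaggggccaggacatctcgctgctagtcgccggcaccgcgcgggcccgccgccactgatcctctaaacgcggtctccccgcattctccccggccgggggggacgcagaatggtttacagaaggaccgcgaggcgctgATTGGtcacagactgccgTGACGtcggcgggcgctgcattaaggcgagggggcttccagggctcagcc

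Gdnf and Lhx1 each held 1 TGACG, and Etv5 held 0. The orientations were opposite, CGTCA in the Gdnf sequence and TGACG in that of Lhx1. In both, the leftmost base of the match stood 50 bases before the start. Of 32851 windows of the same length in the table, 17.8% held this motif. CCAAT stood 3 times before Etv5, 1 time before Lhx1 and 0 times before Gdnf, and 33.8% of all windows held it. TATAAA, the TATA box, stood before Gdnf alone of the 3, in 12.4% of all windows. The motif counts above hold for the first listed starts. The table lists a second start for Gdnf and for Etv5, and the window before that of Gdnf (chr15:7813477-7813726) held 1 CCAAT and neither TGACG nor TATAAA, while CCAAT stood 1 time before that of Etv5. CCGGAA, an ETS core to which factors such as ETV5 bind, was in none of the 3 windows shown, in that of Gfra1, which did not pass the test, and in 12% of all. The motifs were searched on both strands and do not overlap each other in these windows. They were chosen after the sequences were seen, and a match is no evidence of binding.

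Relative to germ-cell transcripts, all 10 genes were higher in the knockouts, as were most genes of the testis. Each library was scaled to the geometric mean of the 15 pan-germ genes, among them Ddx4 and Dazl, which encode RNA-binding proteins of the whole germ line. With this scaling 92.9% of all tested genes were higher and 0.783% lower, and the median of all genes was 1.47. The median of the 10 was 1.71. The count of 10 of 10 is therefore near the background, and where each gene stood relative to the median of all genes says more. That position nearly repeats the TMM result, since this scaling shifts all genes by about the same amount.

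Gfra1 stood at 48.6%, 40.2% and 50.3% of the pan-germ mean in the controls and at 180%, 159% and 127% in the knockouts. The pan-germ-scaled log2 fold change was 1.74 (SE 0.182, edgeR adjusted p = 9.85e-08). Ret stood at 88.5%, 83.0% and 96.1% in the controls and at 238%, 225% and 196% in the knockouts, a scaled change of 1.299 (SE 0.156, edgeR adjusted p = 4.12e-07). With this scaling 92.9% of all tested genes were also higher. Gfra1 lay above the median of all genes, 1.47, and Ret below it, as they did relative to the median of 0.03 with TMM scaling. The 95% intervals of both, 1.36 to 2.13 and 0.97 to 1.63, included that median.

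Id4, Etv5 and Bcl6b were at 1.69, 1.78 and 1.57 with this scaling, and Eomes and Lhx1 reached 2.05 and 2.48. Nanos2 stood at 3.39%, 2.13% and 2.22% of the pan-germ mean in the controls and at 5.05%, 5.81% and 3.56% in the knockouts. Its scaled change of 0.90 (95% interval 0.10 to 1.69, edgeR adjusted p = 0.031) was the smallest of the 10, and with DESeq2 its adjusted p was 0.0701. Its adjusted p was 0.0856 to 0.138 when control library 2 or 3 or knockout library 1 or 2 was left out. Pax7 was at 1.31 (edgeR adjusted p = 0.00334), and without knockout library 3 it was at 0.94 (adjusted p = 0.0516). The control and knockout levels relative to the pan-germ mean did not overlap for any of the 10, against 92.6% of all genes that were higher without overlap. Gdnf is made by somatic cells, and its value of 2.08 compares a somatic transcript with germ-cell ones.

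**Figure D2:**
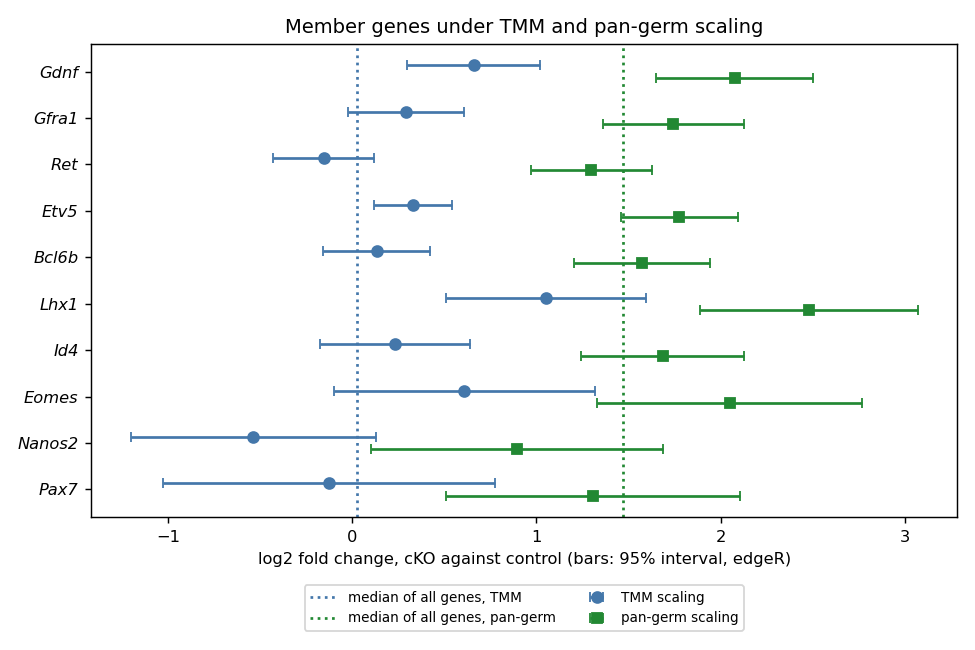
Log2 fold changes of the 10 genes, knockout against control, with 95% intervals from edgeR (n = 3 libraries each), for TMM scaling (circles) and pan-germ scaling (squares). Dotted lines give the median of all tested genes, 0.03 and 1.47, and Ret, Nanos2 and Pax7 lie left of the median with either scaling.

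Progenitor and differentiation genes moved apart from the 10. All 10 genes of that list fell, with a median of -2.30. Neurog3, a bHLH factor gene of progenitors, fell from 3.31 ± 0.977 to 0.593 ± 0.0682 CPM (log2 fold change -2.47, edgeR adjusted p = 0.002). Nanos3, an RNA-binding protein gene of progenitors, was at -2.24 (edgeR adjusted p = 0.00175). Sox3, which encodes a transcription factor of progenitors, was at -2.45 (edgeR adjusted p = 0.000104), and Dmrtb1, of the turn to meiosis, was at -4.51 (edgeR adjusted p = 3.89e-05). With pan-germ scaling, 7 of these 10 genes were lower and 0 higher, against 0.783% lower and 92.9% higher among all tested genes. None of the GDNF and stem-cell genes was lower, as for nearly all tested genes.

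The ratio of Gfra1 to Sox3 restates this contrast within each library. It follows from the changes of Sox3 and Gfra1 given above and is not separate evidence. There were 0.865, 0.696 and 0.925 counts of Gfra1 per count of Sox3 in control testes against 6.88, 5.46 and 4.42 in the knockouts. The ratio was higher in every knockout than in every control (exact permutation test, two-sided p = 0.1, the smallest possible, and 0.15 after adjustment over 3 ratios). These counts are not corrected for transcript length, so the ratio does not say which transcript was more abundant.

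Other genes of the stem-cell fraction were not uniform. Of 20 tested, 2 rose and 6 fell, with a median of -0.16. For comparison, 11.1% of the whole tested transcriptome rose and 13.9% fell, around a midpoint of 0.03, so the share that rose was near the background. Without knockout library 1 or 3 the number that rose was 0, and without control library 3 or knockout library 2 it was 1. In these runs 452 to 677 genes of the whole tested set rose, against 1599 in the main fit. With any 1 library left out, 4 to 9 of the list fell. The number was 9 without control library 1, where 2863 of all tested genes fell, and 4 without knockout library 1, where 968 did. Lin28a and Uchl1, which progenitors also express, fell by 1.70 and 1.57 on the log2 scale (edgeR adjusted p = 0.000755 and 0.000413). Sall4, a zinc-finger factor gene of undifferentiated spermatogonia, stood at 74.0 ± 17.2 CPM and fell to 32.2 ± 8.77 CPM (edgeR adjusted p = 0.00659), and Bmi1, a Polycomb gene, was at -0.47 (edgeR adjusted p = 0.00702, and 0.0504 without knockout library 1). Zbtb16, which encodes PLZF, gave 42.6, 95.9 and 78.7 CPM in control testes against 48.3, 34.2 and 44.2 CPM in knockout testes (edgeR adjusted p = 0.0577). Shisa6, a gene of a stem-cell subset, and Epha2, an ephrin receptor gene, were the 2 that rose, by 0.57 and 0.43 (edgeR adjusted p = 0.0197 and 0.0187), and were named after their values were seen.

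Of 12 further genes reported as GDNF-responsive in cultured spermatogonia, 4 rose, 1 fell and 7 did not pass, with a median of 0.33. The share of all tested genes was 11.1% higher and 13.9% lower, with a median of 0.03. Egr3, an early growth response factor gene, gave 0.791, 1.34 and 1.32 CPM in control testes against 3.51, 3.46 and 2.59 CPM in knockout testes. Its groups were far apart, and it rose by 1.47 (SE 0.294, edgeR adjusted p = 0.00865). Egr2 rose by 0.56 (edgeR adjusted p = 0.0358), Nefm, a neurofilament gene, by 1.03 (adjusted p = 0.00462), and Dusp6, an ERK phosphatase gene, by 0.47 (adjusted p = 0.0196, a gene singled out once its value was known). Pou3f1, a POU factor gene, went the other way, from 9.57 ± 2.01 to 5.53 ± 0.445 CPM (log2 fold change -0.79, edgeR adjusted p = 0.0207). Without control library 3 or any 1 knockout library, 2 rose and 0 fell, with 452 to 677 of all tested genes higher and 903 to 1260 lower. In these settings Egr3 and Nefm passed and Egr2, Dusp6 and Pou3f1 did not, and Egr2 also failed without control library 2. Several of these genes are also expressed outside the germ line. With Sertoli marker scaling 2 rose and 1 fell, where 36 of all 14424 tested genes were higher and 4456 lower.

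Among the other ligands and receptors of the GDNF family, the co-receptor genes differed. Gfra2, the neurturin co-receptor gene, gave 4.75, 3.23 and 4.99 CPM in control testes against 7.61, 7.05 and 8.44 CPM in knockout testes. It rose by 0.83 (edgeR adjusted p = 0.0208), a call that was lost when any 1 knockout library was left out. Gfra3, the artemin co-receptor gene, gave 3.06, 3.01 and 3.67 CPM in control testes against 0.585, 0.352 and 0.598 CPM in knockout testes, a fall of 2.66 on the log2 scale (edgeR adjusted p = 0.001). With pan-germ scaling Gfra3 was still lower, at -1.23 (edgeR adjusted p = 0.00438). Gfra4, the persephin co-receptor gene, was at -0.41 (edgeR adjusted p = 0.303). Of 9 genes in this list 6 were tested, and Artn, Pspn and Gfral were below the filter.

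Of 25 adaptor and kinase genes that relay the signal below RET, 5 rose, 1 fell and 19 did not pass, with a median of 0.16, against 11.1% higher and 13.9% lower among all tested genes. Shc1, Grb2 and Frs2, the adaptor genes, were at 0.17, -0.07 and 0.26 (edgeR adjusted p = 0.189, 0.559 and 0.258). Pik3r1, the regulatory subunit gene of PI3-kinase, rose from 42.3 ± 1.32 to 66.5 ± 0.472 CPM (edgeR adjusted p = 0.00163). Map2k2, which encodes the ERK kinase MEK2, fell from 114 ± 12.8 to 82.0 ± 0.814 CPM (edgeR adjusted p = 0.0111), a call lost without knockout library 1 or 2. Most cell types express these genes. The number that rose was 3 with RLE or total-count scaling or no filter. It was 0 with Sertoli marker scaling, where 36 of all 14424 tested genes were higher. It was 1 or 2 without control library 3 or any 1 knockout library.

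**Figure D3:**
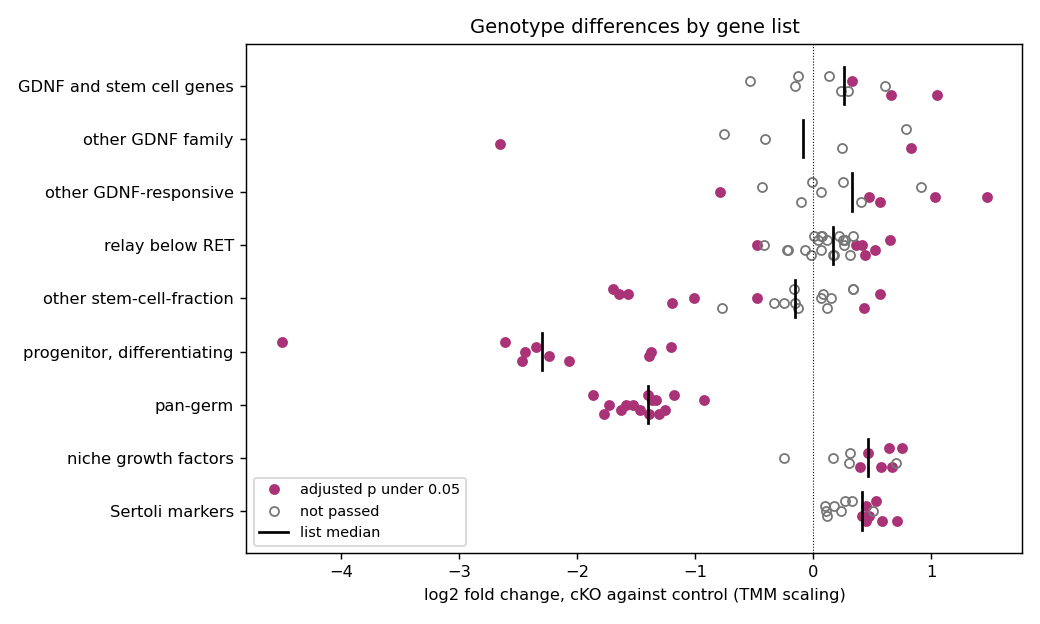
Log2 fold changes (knockout against control, TMM scaling) of the tested genes in 9 lists, with filled points for an edgeR adjusted p under 0.05, open points for genes that did not pass, and a bar at each list's median. The GDNF and stem-cell genes centre on 0.26, and the progenitor and differentiating genes on -2.30.

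Levels of different genes can be compared per transcript length in the deposited FPKM values. In the controls Etv5 was the most abundant of the 10, at 13.1 ± 0.910 FPKM, followed by Ret at 11.9 ± 1.85, Gdnf at 9.69 ± 2.10 and Gfra1 at 7.48 ± 2.63 FPKM (n = 3 each). Each of these 4 overlapped the next in its range, as did Gfra1 and Bcl6b. Bcl6b followed at 5.75 ± 0.595 FPKM and Id4 at 2.59 ± 0.614 FPKM, and the ranges of Bcl6b and Id4 did not overlap. Lhx1 was at 1.42 ± 0.312, Nanos2 at 0.997 ± 0.165, Eomes at 0.527 ± 0.179 and Pax7 at 0.267 ± 0.0874 FPKM. Of these neighbours Lhx1 overlapped Nanos2 and Eomes overlapped Pax7, while Nanos2 and Eomes were apart.

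In the knockouts the order of the upper genes changed. Etv5 was at 16.1 ± 1.15 FPKM and Gdnf at 14.7 ± 1.64, ahead of Ret at 10.2 ± 0.730 and Gfra1 at 8.91 ± 1.06 FPKM. Gdnf was below Ret in 2 of 3 controls and above it in all 3 knockouts. Lhx1 was at 2.99 ± 0.554 FPKM, next to Id4 at 2.91 ± 0.243, and the ranges of this pair overlapped.

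**Figure D4:**
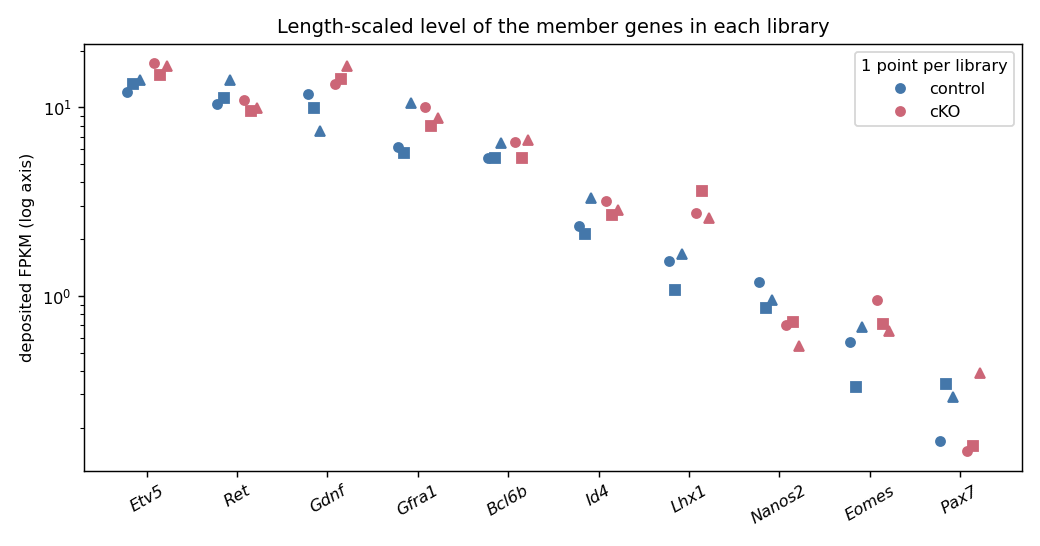
Deposited FPKM of the 10 genes on a log axis, with 1 point per library (circle, square and triangle for library numbers 1, 2 and 3), ordered by the control mean. Levels span from 0.15 FPKM for Pax7 to 17.1 FPKM for Etv5. The points of Gdnf, Etv5 and Lhx1 lie higher in the knockouts and those of Nanos2 lower, each without overlap between groups. The share of all genes without overlap was not computed for FPKM, and in CPM it was 44.6%.

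The genes whose pattern over the 6 libraries was most like that of Gfra1, by Pearson correlation of log2 CPM among tested genes averaging at least 1 in log2 CPM, were C3, Gal3st4, Thumpd2, Gpm6a and Slc25a34, with r from 0.98 to 0.99. These are the highest of many correlations over 6 points that share their library scaling, and none of the 5 differed by genotype at the threshold (edgeR adjusted p = 0.105 to 0.463).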

How the data were processed

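The authors deposited 1 table of counts and FPKM values for every gene in each library. Per the submitters' processing notes, StringTie 1.3.1 and RSEM were used, in roles that are not stated. The aligner, build, annotation and strandedness were not given in the sources used here. The deposited counts are whole numbers, taken as estimated counts that the authors rounded, since some genes have 0 counts beside an FPKM above 0. The deposited FPKM values were scaled by the authors to transcript length and library size. They served to compare levels between genes, to show these levels in each library and to derive implied transcript lengths. No test used them. Symbols came from the supplied gene table by Ensembl ID (22219 of 22274). Gfra1, Id4, Eomes and Nanos2 overlap antisense or opposite-strand genes in GENCODE M21, whose reads cannot be told apart if strand was not used.

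The filterByExpr function of edgeR 4.0.16 (minimum count 10) left 14424 genes. The genotype comparison used the quasi-likelihood test of edgeR in R 4.3.3, after TMM scaling or scaling by the pan-germ genes, with Benjamini-Hochberg adjustment over all tested genes and a threshold of 0.05. A standard error is the fold change divided by the root of F. DESeq2 1.42.0, limma-voom (limma 3.58.1), other scalings and filters, the replicate block and each library left out were alternatives. Scaling by Sertoli or endothelial markers was added after seeing the data. Procedures were tested on simulated data. Libraries of a group differed by more than sampling noise. Members and lists were chosen with earlier results of these data known. Every member was named. From the other lists, the 3 tested genes standing first and the 2 with the smallest p could be named, and other names are marked where given.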

Additional observations from a re-analysis of the deposited data

How the results depend on the processing

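The 3 genes that rose were 2 with total-count scaling, where Etv5 did not pass, and 3 with DESeq2, limma-voom, RLE or upper-quartile scaling, no filter or the stricter filter. Leaving out 1 library gave 0 to 3, with 1 without control library 3 or knockout library 1 or 3 and 0 without knockout library 2, where fewer samples enter. With Sertoli or endothelial marker scaling, added after seeing the data, 1 rose, Lhx1, against 36 and 154 of all 14424 tested genes. The median of all genes moved from 0.03 to -0.35 and -0.22. With Sertoli scaling Gfra1, Etv5, Bcl6b and Id4 turned to -0.11, -0.06, -0.25 and -0.16, and with endothelial scaling Bcl6b turned to -0.11. Pax7 ran from -0.584 to 0.067 with 1 library left out, being 0.067 and 0.06 without knockout library 1 or 2. The count of 10 higher in the knockouts with pan-germ scaling was 9 or 10 in every alternative run. Most tested genes were higher in each, from 13202 of 14584 without knockout library 2 to 13949 of 18333 with no filter. All tested genes that changed numbered 3607, against 1355 to 5255 with 1 library left out.

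Same-numbered libraries did not deviate together (correlations -0.07, -0.08 and 0.07), and the labels tie the numbers to no animal, so they share only a number. With the replicate block 2 genes rose, Gdnf and Lhx1, and Etv5 had an edgeR adjusted p of 0.0698. With pan-germ scaling and this block 10 were higher in the knockouts, as were 13367 of all 14424 tested genes. No control library correlated best with its own number. Eomes, Nanos2 and Pax7 rested on 13 to 51 counts per library.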

Other observations

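Of 13 growth factor genes of the spermatogonial niche 11 were tested, of which 6 rose, 0 fell and 5 did not pass, with a median log2 fold change of 0.47, against 11.1% higher among all tested genes. Igf1 rose from 177 ± 19.9 to 298 ± 4.75 CPM (n = 3 each, edgeR adjusted p = 0.00227), and Kitl, the KIT ligand gene, from 396 ± 44.3 to 628 ± 33.9 CPM (adjusted p = 0.00382). Fgf2, which with GDNF supports stem cells in culture, gave 38.4, 45.5 and 47.7 CPM in control testes against 57.2, 56.2 and 60.2 CPM in knockout testes (0.40, edgeR adjusted p = 0.0244), a call lost when any 1 knockout library was left out. Fgf9 and Csf1 were at 0.70 and 0.17 (edgeR adjusted p = 0.208 and 0.246). Leaving out any 1 library gave 2 to 6 higher, with the lowest number without knockout library 1 or 2 and 3 without control library 3 or knockout library 3. Scaling by the Sertoli cell markers gave 0, with 36 of all 14424 tested genes higher.

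Of 7 Leydig cell markers 2 rose and 5 did not pass, and of 9 macrophage markers 2 rose and 7 did not pass. The medians were 0.81 and 0.45. Among all tested genes 11.1% were higher, and the median was 0.03. Lhcgr and Hsd17b3 rose by 1.002 and 0.81 (edgeR adjusted p = 0.00846 and 0.00649), and Mrc1 and Cx3cr1 by 0.50 and 0.47 (adjusted p = 0.00859 and 0.0397). Without control library 1, 7 Leydig and 4 macrophage markers were higher, as were 2392 of all 14554 tested genes. The macrophage number was 1, with Cx3cr1 not passing, when control library 2 or 3 or knockout library 1 or 2 was left out.

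The transcript length implied by the deposited count and FPKM of a gene, relative to its median over the 6 libraries, was 1.11, 1.13 and 0.827 for Gfra1 in control testes 1, 2 and 3 against 0.992, 1.01 and 0.889 in knockout testes. For Lhx1 it was 1.21, 0.886 and 0.966 in control testes against 1.11, 0.823 and 1.03 in knockout testes. Of 11837 genes with at least 50 counts in every library, 5.35% varied more between libraries than Gfra1. Lhx1, with 46 counts in control library 2, is outside that set. Gdnf, Ret and Id4 varied by about 1% or less. Control library 3 thus had the highest Gfra1 level of the 6 in FPKM, 10.5, while in CPM it was second to knockout library 1. What transcripts made up these lengths was not tested.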
